A study of Mus musculus with 12 samples.

Results

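The mRNA collected on polysomes was compared with the total mRNA of adult mouse neural stem cells (NSCs) grown at 10 µM folic acid, the medium concentration (MF). The members were the 4 libraries that the labels give as polysome MF and total MF, replicates 1 and 2 of each, out of 12 libraries in the series. The remaining 8 libraries are the same fractions at 1.5 µM (low folate, LF) and 80 µM (high folate, HF) and enter only where the doses are compared. All groups held NSCs from the subventricular zone of wild type C57BL/6 male mice aged 6 to 8 weeks, cultured for 4 days in serum-free medium with B27, EGF and bFGF. Total RNA was taken directly from cells in TRIzol. For polysome RNA the cells were treated with cycloheximide, which holds ribosomes on the mRNA, lysed in hypotonic buffer, spun, and separated on a sucrose gradient, and the fractions of mRNAs carrying several ribosomes were pooled. Both kinds of RNA were then selected by their poly(A) tails. The labels call the replicates biological duplicates without saying whether separate animals or cultures were used, so the p-values measure the spread between these samples, which may in part be technical. They do not say either that the total and polysome RNA of 1 number came from 1 culture. The fraction and any difference in culture or handling that went with it therefore cannot be told apart.

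An mRNA that is being translated carries ribosomes one behind another, and its sedimentation in sucrose grows with their number. The share of an mRNA found on polysomes depends on how often ribosomes start on it, how long its reading frame is and whether it has left the nucleus. RNAs that stay in the nucleus, mRNAs made and translated inside mitochondria, and mRNAs held back by structures or short reading frames upstream of the start codon are known examples of RNA with few cytosolic ribosomes. The integrated stress response is the textbook case of the opposite: phosphorylation of eIF2 lowers initiation on most mRNAs, while the mRNA of the transcription factor ATF4 escapes through its upstream reading frames.

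The 4 libraries held between 20506797 and 28170296 counts over 43432 gene identifiers. Counts scaled to a common library size (CPM, with edgeR's TMM factors) correlated across genes with a Pearson r of 0.9966 between the total MF replicates and 0.9938 between the polysome MF replicates on a log2 scale. The NSC identity markers were all present: 25 of 25 reached a TPM value, scaled for transcript length, of 1 in both total MF libraries, with a summed level of 8070 to 8470 TPM in total and 7770 to 8090 TPM in polysome mRNA. Of the 11 microglial markers 7 were at 0 in both total MF libraries, the fractalkine receptor and C1q genes among them. Another 2 reached 1 TPM in both. The microglial markers summed to 6.37 to 7.39 TPM in total and 11.3 to 13.6 TPM in polysome mRNA. Of 8 endothelial markers 0 reached 1 TPM in both total MF libraries. Mural and mesenchymal markers summed to 382 to 403 TPM in total and 599 to 620 TPM in polysome mRNA. Neuroblast markers summed to 608 to 615 TPM in total and 297 to 298 TPM in polysome mRNA, oligodendrocyte markers to 335 to 357 and 277 to 295 TPM, and astrocyte markers to 340 to 357 and 409 to 456 TPM. In bulk samples fewer cells of a type and less RNA per cell cannot be told apart.

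Polysome and total mRNA differed for most genes. Of the 13804 genes tested, 9858 (71.4%) passed edgeR's quasi-likelihood test with a Benjamini-Hochberg adjusted p under 0.05 and differed by over 1.2-fold (a call, 2 libraries per fraction), 4916 (35.6%) higher and 4942 (35.8%) lower in polysomes. The ratio had a longer tail downwards: 1758 genes were called over 2-fold higher and 2773 over 2-fold lower, and 118 over 8-fold higher against 547 over 8-fold lower. The middle 50% of genes lay between log2 ratios of -0.78 and 0.64. The 2 polysome libraries did not overlap the 2 total libraries in CPM for 87.4% of the genes tested. The ratio is relative, since TMM sets the typical gene near 0 and no added standard ties the fractions to each other. Within the same pool of RNA a positive log2 ratio therefore means a larger share on polysomes than the typical mRNA. It does not mean a share above 50%. Whether the fractions came from the same pool is not given. With library totals in place of TMM factors the median of all genes moved to -0.125, and every ratio given here moves down with it.

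**Figure D1:**
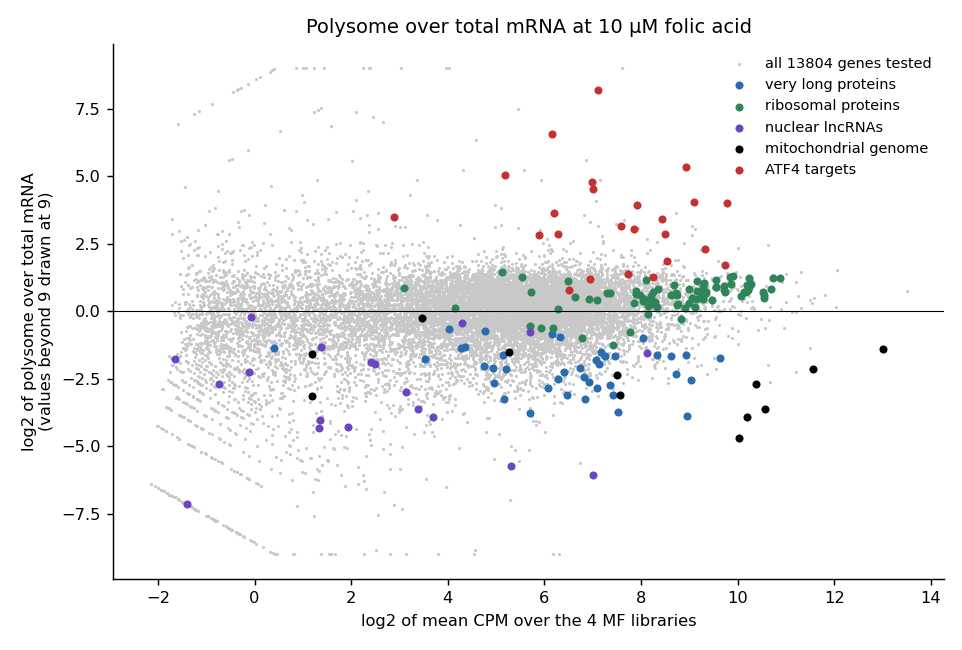
Each point is 1 gene, with the log2 of its mean CPM over the 4 MF libraries on the horizontal axis and the log2 ratio of polysome over total mRNA on the vertical axis, values beyond 9 being drawn at 9. The 24 ATF4 targets (red) all lie above 0, while the 40 very long proteins (blue), the nuclear noncoding RNAs (purple) and the transcripts of the mitochondrial genome (black) lie below it.

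The ATF4 programme was far higher in polysomes: of its 24 tested targets 14 were called over 8-fold higher, out of 118 such genes in all. *Trib3*, a pseudokinase that is induced by ATF4 and feeds back on it, had 1.16 and 0.721 CPM in the 2 total libraries and 245 and 307 CPM in the polysome libraries, a log2 ratio of 8.19 ± 0.203 (SE; adjusted p = 5.28e-08, edgeR). *Chac1*, an enzyme that degrades glutathione, had 1.39 and 1.58 CPM in total and 129 and 155 CPM in polysome mRNA (log2 6.57 ± 0.152). *Asns*, which makes asparagine, had 25.4 and 21.5 CPM in total and 965 and 930 CPM in polysome mRNA (log2 5.34 ± 0.101). In each of these the fractions were far apart and the replicates of a fraction close together. *Fgf21*, a secreted hormone of the starvation and stress response, had 1 count and 0 counts in the total libraries and 658 and 949 counts in the polysome libraries. Its log2 ratio from the summed counts was 10.42, with an exact 95% binomial interval of 7.94 to 15.72 that covers counting error only.

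The 12 protein-coding genes with the highest ratio were *Fgf21*, *Trib3*, *Serpinc1*, *Chac1*, *Atf3*, *Bcat1*, *Asns*, *Serpinf1*, *G0s2*, *Stc2*, *Ddit3* and *Slc6a9*. *Bcat1* encodes the cytosolic branched-chain aminotransferase, *Slc6a9* a glycine transporter and *Stc2* a secreted glycoprotein. *Bcat1* had 4.17 and 5.09 CPM in total and 226 and 230 CPM in polysome mRNA (log2 5.62 ± 0.11). *Serpinc1*, the gene of antithrombin, stood at 2 counts and 1 count in total mRNA against 249 and 312 in polysome mRNA, and its log2 ratio of 7.31 has an exact counting interval of 5.76 to 9.59. *Serpinc1*, *Bcat1*, *Ddit3* and *Slc6a9* overlap a gene on the other strand, and *Ddit3* also overlaps a gene on the same strand. An overlap on the other strand was annotated for 4440 of the 13804 genes tested. The strand setting of the counting is not given in the sources used here.

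The promoters of these genes are shown because ATF4 and C/EBP partners bind a composite element with the letters TGATGNAA. The element was searched on both strands from 250 bases before to 50 bases after the RefSeq start (build GRCm38.p6). It was found for 6 of the 12 genes with the highest ratio, and each stretch below is written 5′ to 3′ on the gene's strand with the element, or its reverse complement TTNCATCA, in capitals.
Asns, chr6:7693217-7693241, element beginning 23 bases before the start: ccagccacaTGATGAAActtcccgc
Trib3, chr2:152344031-152344055, reverse complement beginning at base 15 of the transcript: agctcaggtTTACATCAgccgggcg
Chac1, chr2:119351040-119351064, reverse complement beginning 193 bases before the start: tccctgccgTTGCATCActcctgcc
Atf3, chr1:191183428-191183452, reverse complement beginning 110 bases before the start: ttctcgcacTTGCATCAccaagtcc
Fgf21, chr7:45615614-45615638, reverse complement beginning 139 bases before the start: acccccccaTTGCATCAtccgtcca
Serpinf1, chr11:75422639-75422663, element beginning 31 bases before the start: accagacaaTGATGCAAtcacagat
Of the 20 ATF4 targets with a promoter in the table, 8 held the element (40%): *Asns*, *Chac1*, *Nupr1*, *Pycr1*, *Slc1a4*, *Slc7a11*, *Trib3* and *Vldlr*. It was present in 3.97% of all 32851 promoters of the table and in 2.65% of the 9960 tested protein-coding genes with a promoter. Of the 65 with a promoter among coding genes called over 8-fold higher, a set that holds the 12 highest, 17 (26.2%) had the element. Among the 12 genes with the lowest ratio it was found in 0 of the 8 with a promoter. With so few promoters and a share of 2.65%, 0 was likely in any case. A match describes the letters of the window and not binding, and no match says nothing of binding elsewhere.

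All 24 tested members of the ATF4 target list were called higher in polysomes, with a median log2 ratio of 3.30 against 0.01 over all genes tested. The smallest ratios in the list were those of *Ddit4*, an inhibitor of mTORC1 (log2 0.81 ± 0.162), *Cebpg*, a C/EBP partner of ATF4 (1.21 ± 0.109), and *Vldlr*, a lipoprotein receptor (1.27 ± 0.0952). *Ddit4* was the one of the 3 under 2-fold, with 67 and 64.7 CPM in total and 95 and 136 CPM in polysome mRNA.

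*Atf4* itself had 122 and 118 CPM in total and 918 and 1050 CPM in polysome mRNA, a log2 ratio of 3.04 ± 0.088 (adjusted p = 2.11e-08, edgeR). Among mRNAs known for control by upstream reading frames, 9 of 15 were called higher and 2 lower, with a median of 1.12. The highest were *Ddit3* (log2 4.86 ± 0.168), which encodes the stress factor CHOP, *Ppp1r15a* (3.58 ± 0.288), which encodes GADD34, the subunit that directs dephosphorylation of eIF2, and *Atf5* (3.23 ± 0.147), a relative of ATF4. The 2 called lower were *Amd1* (-0.81 ± 0.111), whose upstream peptide senses polyamines, and *Bace1* (-0.28 ± 0.074). *Atf5* had 34.5 and 34.9 CPM in total mRNA and 277 and 373 CPM in polysome mRNA, and *Ppp1r15a* 16.6 and 18.4 CPM against 156 and 263 CPM, so that the polysome replicates of *Ppp1r15a* lay farther apart than those of *Atf4*.

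The size of these ratios has an arithmetic consequence. Suppose that both fractions came from 1 pool of RNA and were recovered alike. An mRNA held wholly on polysomes could then exceed the typical mRNA by no more than the inverse of the typical mRNA's polysome share. A ratio as large as that of *Trib3* (293-fold) would then require a typical share of no more than 0.341%, that of *Chac1* (95.3-fold) no more than 1.05% and that of *Asns* (40.4-fold) no more than 2.48%. The typical share is not given by the files. Whether the total and polysome cultures differed in the level or recovery of these mRNAs was not tested and cannot be told apart from the fraction.

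**Figure D2:**
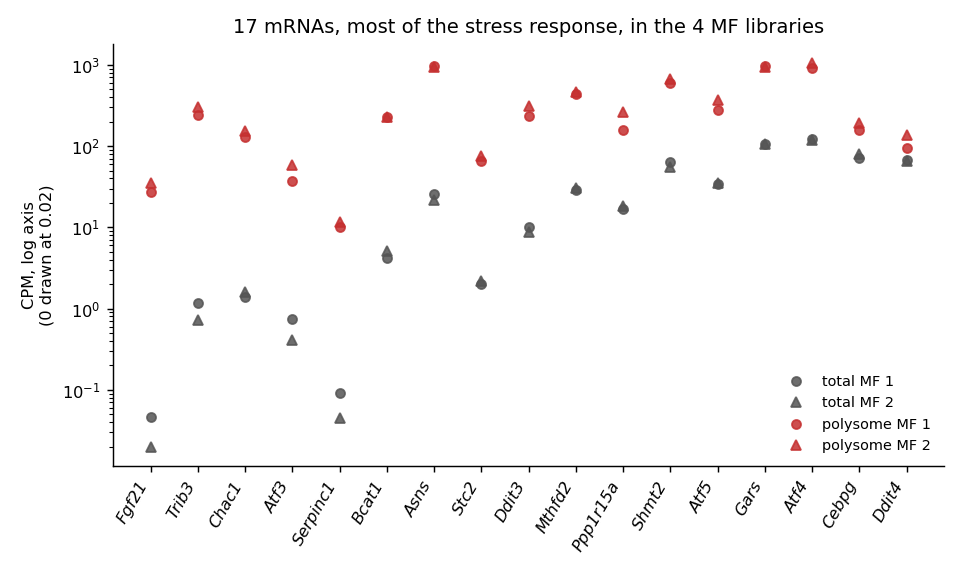
CPM of 17 mRNAs, most of them of the stress response, on a log axis, in the total (grey) and polysome (red) MF libraries, with circles for replicate 1 and triangles for replicate 2 and a value of 0 drawn at 0.02. The fractions do not overlap for any of the 17, and the gap runs from *Fgf21* with 27.1 and 34.9 CPM in polysomes to *Ddit4* with 95 and 136 CPM against 67 and 64.7 CPM.

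The enzymes that load amino acids onto tRNAs and those of mitochondrial one-carbon metabolism were higher as well. Of 36 tRNA synthetases 29 were called higher and 2 lower, with a median log2 ratio of 0.93. The synthetases for glycine (*Gars*, 3.17 ± 0.072), serine (*Sars*, 2.82 ± 0.0737) and cysteine (*Cars*, 2.78 ± 0.0849) were the highest, and the mitochondrial *Mars2* (-1.23 ± 0.141) and *Lars2* (-0.60 ± 0.0771) the 2 called lower. *Gars* had 105 and 107 CPM in total and 956 and 954 CPM in polysome mRNA. Of 20 mitochondrial enzymes of the citric acid cycle and of folate 18 were called higher and 0 lower. *Mthfd2* (3.93 ± 0.0801) and *Shmt2* (3.42 ± 0.0936), which hand on the one-carbon units of serine inside mitochondria, led them. Both are also on the ATF4 target list and were counted there. *Mthfd2* had 28.8 and 30.5 CPM in total and 443 and 459 CPM in polysome mRNA. In the cytosolic folate and methionine list 13 of 19 were called higher and 4 lower, with a median of 0.38. Its members ranged from *Mtr*, methionine synthase (-1.28 ± 0.0988), to *Slc19a1*, the reduced folate carrier (1.83 ± 0.119), and *Aldh1l2* (3.02 ± 0.238), whose product is in fact a mitochondrial formyltetrahydrofolate dehydrogenase.

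RNAs known to remain in the nucleus were low in polysomes. Of 19 tested nuclear noncoding RNAs 18 were called lower and 0 higher, with a median log2 ratio of -2.69 (-2.65 with the 1 member at 0 counts in polysomes set at its bound). *Malat1* (chr19:5795690-5802672), an abundant nuclear RNA, had 258 and 247 CPM in total and 2.22 and 5.22 CPM in polysome mRNA, a log2 ratio of -6.06 ± 0.30 or 66.6-fold lower. *Miat* had 85.1 and 70.4 CPM in total and 1.23 and 1.69 CPM in polysome mRNA (-5.72 ± 0.17). *Pvt1* was the called member nearest to 0 (-0.44 ± 0.128, adjusted p = 0.0114, edgeR).

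Over whole gene classes the 687 tested long noncoding RNAs had a median of -1.38, with 424 called lower and 54 higher, against 0.07 for the 12639 nuclear protein-coding genes (37.9% called higher and 33.5% lower). Long noncoding RNAs took 0.580% to 0.595% of the counts in total and 0.306% to 0.335% in polysome mRNA. Among the called ones with at least 10 CPM in the higher fraction, *Gm16185* lay lowest, with 12.1 and 15.7 CPM in total mRNA against 0 counts and 1 count in polysome mRNA. *A930004J17Rik*, which the annotation keeps apart as a gene to be experimentally checked, had 11.9 and 10.8 CPM against 1 count and 0 counts. Some lay high: *0610009E02Rik* had 0.835 and 0.135 CPM in total and 84.5 and 90 CPM in polysome mRNA. *Gm26527* had 0 counts in both total libraries and 324 and 204 in the polysome libraries, at least 75.9-fold higher against a floor of 3 counts per library. Both overlap a gene on the other strand.

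Noncoding RNAs known from the cytoplasm and the hosts of small nucleolar RNAs were mixed. Of 6 cytoplasmic noncoding RNAs 3 were called lower: *2900097C17Rik* (-3.12 ± 0.133), *1700020I14Rik* (-2.35 ± 0.167) and *Tug1* (-0.88 ± 0.159). Of 12 small nucleolar RNA hosts, most of them noncoding, 4 (33.3%) were called higher and 6 lower. Of all genes tested 35.6% were called higher and 35.8% lower, and of the long noncoding RNAs 7.86% and 61.7%. The share of hosts called higher was thus near that of all genes. *Snhg5* had 19.6 and 17.9 CPM in total and 43.7 and 59 CPM in polysome mRNA (1.45 ± 0.148), *Snhg12* a log2 ratio of 1.00 ± 0.195 and *Zfas1* 0.70 ± 0.112, while *Snhg11*, annotated as protein-coding, was the lowest (-3.65) and *Snhg18* (-1.04 ± 0.114) and *Snhg14* (-1.01 ± 0.0889) were lower too.

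Protein-coding genes whose transcripts are known to hold introns in the nucleus went the same way as the nuclear RNAs. Of 14 such genes 13 were called lower and 0 higher, with a median of -0.98. *Ogt*, the enzyme that adds N-acetylglucosamine to nuclear and cytosolic proteins, had 305 and 299 CPM in total and 40.3 and 42.2 CPM in polysome mRNA (-2.87 ± 0.0762). *Rsrp1* (-2.67 ± 0.0971) and *Son* (-2.46 ± 0.0742), both linked to splicing, followed, and *Mat2a*, which makes S-adenosylmethionine, was the called member nearest to 0 (-0.38 ± 0.0741). SR and hnRNP splicing regulators as a group were near the typical gene, with a median of 0.07. Of the 34, 11 (32.4%) were called higher and 13 (38.2%) lower, beside 35.6% and 35.8% of all genes tested.

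Transcripts of the mitochondrial genome, which mitochondrial ribosomes translate, were lower for 10 of 12 tested mRNAs and higher for 0, with a median log2 ratio of -2.50. *mt-Nd2* had 1930 and 2070 CPM in total and 57 and 98.2 CPM in polysome mRNA (-4.68 ± 0.283). *mt-Co1* kept more, with 11500 and 12300 CPM in total and 4040 and 5000 CPM in polysome mRNA (-1.40 ± 0.107). All transcripts of the mitochondrial genome took 2.74% to 2.92% of the counts in total and 0.536% to 0.725% in polysome mRNA. Reads of these mRNAs can also be assigned to nuclear copies of mitochondrial DNA on chromosome 1. The 5 such pseudogenes tested (chosen after their values were seen) summed to 11200 to 11600 CPM in total and 3370 to 3910 CPM in polysome mRNA. Of the 5, 4 were called lower and 1, *Gm29216*, higher (log2 1.92). With them included, the log2 ratio of the summed mitochondrial level was -1.91.

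Among protein-coding genes the lowest ratios included many zinc finger genes. The 12 lowest were *Sowahc*, *Zbed6*, *Gm21897*, *Slfn9*, *Zfp966*, *Zfp808*, *BC005561*, *Lcor*, *Gm38394*, *Zfp182*, *Zfp871* and *Zfp445*. *Zfp871* had 95 and 104 CPM in total and 2.67 and 2.94 CPM in polysome mRNA (-5.14 ± 0.117, adjusted p = 9.04e-09, edgeR), and *Slfn9*, a member of the Schlafen family, 77.5 and 76.7 CPM against 0.411 and 0.773 CPM (-6.99 ± 0.175). *Sowahc* had 561 and 654 counts in total and 0 in both polysome libraries, at least 237-fold lower, but its log2 ratio was -1.72 at HF and -1.12 at LF. *Zbed6*, which lies inside another gene on the same strand, had 49 and 45.5 CPM in total and 0.206 and 0 CPM in polysome mRNA, and was also low at HF (log2 -7.28).

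Of the 349 tested genes named Zfp, most of which encode DNA-binding zinc finger factors, 237 were called lower and 37 higher, with a median of -1.14. They made up 2.76% of the tested nuclear protein-coding genes and 52 of the 251 (20.7%) called over 8-fold lower. The list was not uniform: *Zfp330* (1.47 ± 0.0844), *Zfp623* (1.34 ± 0.097) and *Zfp428* (1.3 ± 0.143) were called higher. Zfp transcripts had a median GC content of 45.0% against 50.4% over the tested nuclear protein-coding genes, and a median coding length of 572 codons against 471.

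**Figure D3:**
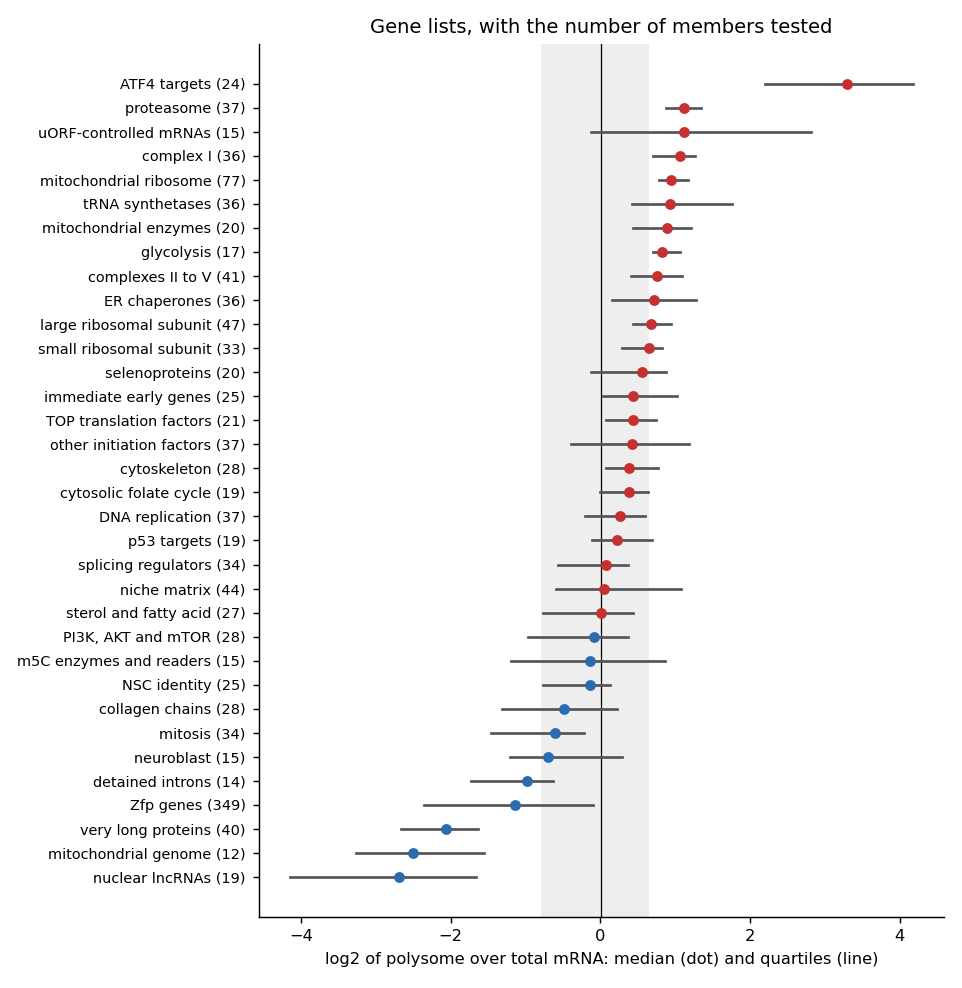
Median (dot) and quartiles (line) of the log2 ratio of polysome over total mRNA for 34 gene lists, with the number of members tested in brackets, the median of all tested genes as a vertical line and their quartiles as a grey band. The ATF4 targets lie at 3.30 and the nuclear noncoding RNAs at -2.69, the ends of the range.

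The ratio was lower for longer coding sequences. The median was 0.39 in the shortest 10% of nuclear protein-coding genes (25 to 181 codons) and 0.56 in the next (182 to 254 codons), and it was then lower in each following bin down to -1.02 in the longest 10% (1178 to 8799 codons). Of the longest 10%, 4.52% were called higher, against 59.2% of the genes with 182 to 254 codons. The Spearman correlation across 12607 genes was -0.43, a description over genes that share the same 4 libraries. All 40 tested genes of a list for very long proteins were called lower, with a median of -2.06, and their median after a smooth trend on coding length was subtracted was -0.13. *Syne2*, a giant protein of the nuclear envelope with 6874 codons, had 338 and 351 CPM in total and 27.8 and 23.6 CPM in polysome mRNA (-3.74 ± 0.0966). *Macf1* (-2.54 ± 0.072) and *Dst* (-2.82 ± 0.088), which link actin and microtubules, lay close to the trend, *Mki67* (-3.86 ± 0.186) and *Atm* (-3.78 ± 0.108) below it. *Syne1*, the longest with 8799 codons, was nearest to 0 (-0.66 ± 0.181).

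The shortest reading frames lay lower than those just above them. The 5 tested genes with fewer than 50 codons had a median of -0.76 with 0 called higher, those with 50 to 99 codons a median of 0.10 and the 742 genes in the class from 150 codons 0.55. *Tmsb4x*, thymosin beta 4, had 2420 and 2660 CPM in total and 611 and 675 CPM in polysome mRNA (-1.98 ± 0.0843). *Tmsb10* (-1.09 ± 0.104) and *Ost4* (-0.76 ± 0.0872), a subunit of the oligosaccharyltransferase, were lower too. *Rpl41*, the ribosomal protein of 25 codons, had 498 and 489 CPM in total and 403 and 418 CPM in polysome mRNA (-0.27 ± 0.0667), and this call was lost under 8 of the 18 alternatives.

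Other features of the mRNA went with the ratio in the same descriptive way. The median was 0.53 in the second bin of 3′ UTR length (162 to 311 nucleotides) and -0.63 in the longest 10% (3403 nucleotides and more), and the Spearman correlation was -0.32 and, after the coding length trend was subtracted, -0.33. Transcript GC content ran the other way, with a median of -1.14 in the lowest 10% (32.8% to 42.1%) and 0.38 in the ninth bin (56.1% to 58.3%), and a correlation of 0.36. At HF the correlation with GC was 0.19 and at LF 0.00, while that with coding length was -0.41 and -0.50. Genes with no ATG upstream of the annotated start codon had a median of 0.20 and those with 4 or more -0.27. The part of each feature in the ratio was not tested.

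**Figure D4:**
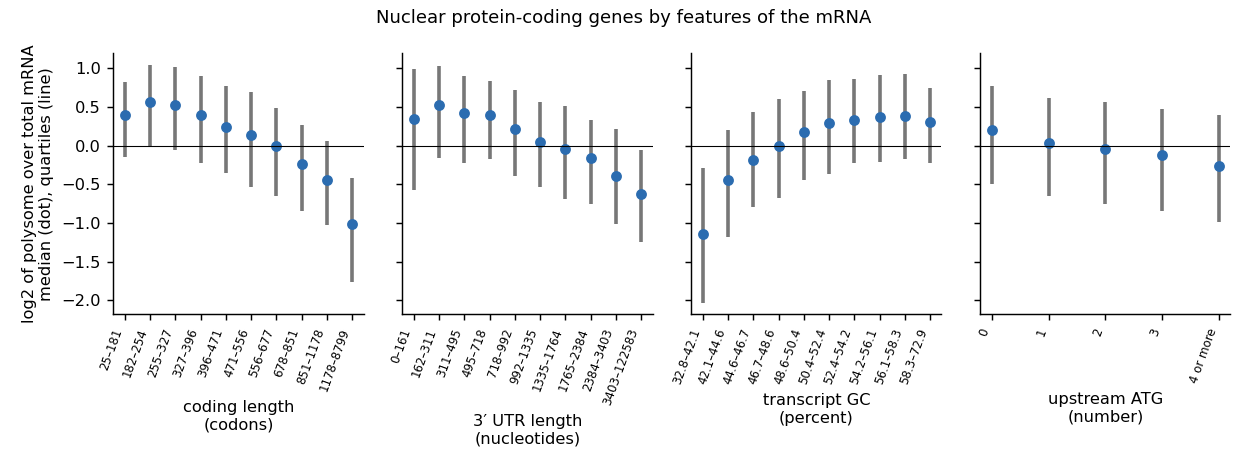
Median (dot) and quartiles (line) of the log2 ratio of polysome over total mRNA for 12607 nuclear protein-coding genes in bins of 10% by coding length, 3′ UTR length and transcript GC content, and by the number of ATG triplets upstream of the start codon. The median of the longest 10% of coding sequences is -1.02 and that of the lowest 10% of GC content -1.14.

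The mRNAs of the translation machinery were mostly higher in polysomes. Those of ribosomal proteins and of some translation factors are known to begin with a pyrimidine tract (TOP) through which mTORC1 and LARP1 control them. Of 47 large subunit ribosomal proteins 39 were called higher and 4 lower (median 0.68), and of 33 small subunit proteins 25 higher and 3 lower (median 0.65). *Rpl8* had 537 and 536 CPM in total and 1310 and 1300 CPM in polysome mRNA (1.29 ± 0.0672). The lowest members were *Rps12* (-1.25 ± 0.0891), *Rpl39* (-0.97 ± 0.0833), *Rpl10* (-0.77 ± 0.0784), *Rps21* (-0.63 ± 0.0756) and *Rpl5* (-0.61 ± 0.0833). *Rpl10* was higher at HF (0.38). Ribosomal protein genes have many processed pseudogenes, and counts of single members are uncertain where reads were divided among copies.

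Of 21 other TOP mRNAs 13 were called higher and 2 lower, with a median of 0.44. The elongation factors *Eef1a1* (0.75 ± 0.0722) and *Eef1d* (1.44 ± 0.0738) were higher, *Eif3a* (-1.88 ± 0.127), the longest subunit of eIF3, and *Pabpc1* (-0.70 ± 0.207), the poly(A)-binding protein, lower. *Eef1a1* had 8600 and 8670 CPM in total and 14500 and 14600 CPM in polysome mRNA. Of 37 further initiation and release factors 22 were called higher and 10 lower. *Eif4ebp1*, a repressor of cap-dependent initiation and a known ATF4 target, had 21.7 and 23.2 CPM in total and 212 and 235 CPM in polysome mRNA (3.32 ± 0.0916), while its relative *Eif4ebp2* had 69.5 and 62.6 CPM against 12.9 and 12.8 CPM (-2.36 ± 0.10). *Eif6* (1.88 ± 0.0762) and *Eif2b3* (1.79 ± 0.0959) were higher, *Eif4g3* (-1.71 ± 0.127) and *Eif5b* (-1.18 ± 0.0798) lower.

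Nuclear genes for short, abundant mitochondrial proteins were almost uniformly higher. Of 77 mitochondrial ribosomal proteins 71 were called higher and 0 lower, with a median log2 ratio of 0.95 and the middle 50% between 0.79 and 1.17. *Mrpl46* (1.80 ± 0.111) was the highest and *Mrpl42* the lowest (-0.19 ± 0.0867, adjusted p = 0.0795, edgeR). Of 36 complex I subunits 35 were called higher and 0 lower (median 1.06), from *Ndufs1* (0.23 ± 0.0743, under the fold threshold of a call) to *Ndufs8* (1.92 ± 0.086), both of the electron-carrying core. Of 41 subunits of complexes II to V 33 were called higher and 0 lower (median 0.76), with *Atp5h* (1.47 ± 0.0827) of ATP synthase, *Sdhb* (1.37 ± 0.0978) of complex II and *Cyc1* (1.36 ± 0.0776) of complex III at the top. These medians stayed above 0 after the coding length trend was subtracted, at 0.54, 0.68 and 0.46.

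The proteasome and glycolysis were similar. Of 37 proteasome subunits 34 were called higher and 1, *Psmd1* (-0.70 ± 0.0785), lower, with a median of 1.12. *Psmb5*, the catalytic subunit with chymotrypsin-like activity, had 94.8 and 85.4 CPM in total and 317 and 294 CPM in polysome mRNA (1.76 ± 0.0825). Of 17 glycolytic enzymes 15 were called higher and 0 lower, with a median of 0.83, *Tpi1* (1.3 ± 0.0948) and *Aldoa* (1.24 ± 0.0695) among them. *Gapdh* (0.82 ± 0.0889) and *Actb* (0.58 ± 0.0766), used in many assays as reference genes, were both higher in polysomes.

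mRNAs of the secretory pathway and of secreted proteins lay on both sides. Of 36 chaperones and enzymes of the endoplasmic reticulum 26 were called higher and 5 lower, with a median of 0.71. *Herpud1*, which acts in the removal of misfolded proteins, had 28.2 and 27.8 CPM in total and 247 and 250 CPM in polysome mRNA (3.15 ± 0.0781), while *Ssr2* (1.84 ± 0.0808) and *Rpn1* (1.50 ± 0.0789) belong to the translocation and glycosylation machinery. *Dnajc3*, an inhibitor of eIF2 kinases, was lower (-0.57 ± 0.0787). Of 28 collagen chains 16 were called lower and 5 higher (median -0.48), but their median was 0.40 after subtraction of the coding length trend. *Col26a1* (1.58 ± 0.105) and *Col6a2* (1.43 ± 0.185) were the highest. The niche matrix list had a median of 0.05 and, after subtraction of the coding length trend, 0.72, with 36 of 44 above the trend. In this list 16 (36.4%) were called higher and 17 (38.6%) lower, near the 35.6% and 35.8% of all genes tested. It ran from *Vcan*, the proteoglycan versican (569 and 599 CPM in total, 121 and 150 CPM in polysome mRNA, -2.11 ± 0.103), and *Tnr*, tenascin R (-1.55 ± 0.0801), to *Fbln5*, an elastic fibre protein (2.16 ± 0.0969), and *Igfbp4*, which binds insulin-like growth factors (2.68 ± 0.126).

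Of 10 polyamine genes 4 were called higher and 2 lower. *Odc1* and *Srm*, which make polyamines, were higher (1.17 ± 0.0709 and 1.73 ± 0.0789), *Amd1*, which also acts in their synthesis, was lower (-0.81 ± 0.111), and *Oaz1*, the antizyme that removes ODC, was lower (-0.31 ± 0.0756, a call lost under 5 of the 18 alternatives). *Tfrc*, the transferrin receptor, had 153 and 179 CPM in total and 51.5 and 51.4 CPM in polysome mRNA (-1.69 ± 0.0925). Of 20 selenoproteins, which read UGA as selenocysteine, 13 were called higher and 5 lower. They ran from *Dio2* (-1.97 ± 0.143) and *Selenow* (-0.79 ± 0.0754) to *Selenok* (1.2 ± 0.0951) and *Selenos* (1.64 ± 0.0764), both of the endoplasmic reticulum. In sterol and fatty acid synthesis 9 of 27 (33.3%) were called higher and 12 (44.4%) lower, beside 35.6% and 35.8% of all genes tested. This list ran from *Fasn* (-1.76 ± 0.0984) and *Hmgcs1* (-1.17 ± 0.102) to *Cyp51* (0.89 ± 0.0821) and *Pmvk* (1.19 ± 0.0901).

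Immediate early genes and p53 targets held members on both sides, as did all genes tested (35.6% called higher and 35.8% lower). Of 25 immediate early genes 12 were called higher and 2, *Klf6* (-1.12 ± 0.181) and *Egr3* (-1.18 ± 0.291), lower. After *Atf3* (0.742 and 0.406 CPM in total, 36.8 and 58 CPM in polysome mRNA), the highest were *Ier2* (2.70 ± 0.343) and *Junb* (2.12 ± 0.403). *Ier2* had 5.98 and 6.44 CPM in total and 28.1 and 52.4 CPM in polysome mRNA, so that its 2 polysome libraries lay farther apart than its total libraries. Taken replicate by replicate, the list's median log2 ratio was 0.07 for number 1 and 0.79 for number 2. Of 19 p53 targets 7 were called higher and 4 lower, with *Gadd45a* (2.88 ± 0.261) and *Sesn2* (1.38 ± 0.0787), which is also on the ATF4 list, at the top and *Trp53inp1* (-2.02 ± 0.072) and *Ccng1* (-1.73 ± 0.127) at the bottom.

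The genes that mark NSCs were mostly near or below the typical gene. Of 25 identity genes 5 were called higher and 11 lower, with a median log2 ratio of -0.14. *Nes*, which encodes the intermediate filament nestin in 1864 codons, had 1460 and 1420 CPM in total and 576 and 665 CPM in polysome mRNA (-1.22 ± 0.0841), close to the trend for its length. *Sox2*, a transcription factor of stem cell maintenance, had 127 and 138 CPM in total and 113 and 127 CPM in polysome mRNA (-0.14 ± 0.0851, adjusted p = 0.158, edgeR). *Notch1* (-1.51 ± 0.0718) and *Id4* (-1.33 ± 0.134) were lower, *Id1* (1.57 ± 0.139) and *Vim* (0.51 ± 0.069) higher. Of 15 neuroblast genes 9 were called lower and 2 higher. *Sox4* had 205 and 197 CPM in total and 34.4 and 49 CPM in polysome mRNA (-2.27 ± 0.155), *Map2* a log2 ratio of -1.84 ± 0.0728 and *Tubb3* 1.39 ± 0.156. The contractile genes *Acta2* (2.53 ± 0.0928) and *Tagln* (2.54 ± 0.0881) were higher. *Tagln* had 25.4 and 28.5 CPM in total and 158 and 156 CPM in polysome mRNA. Of the 9 tested mural and mesenchymal markers 5 were called higher and 1 lower, beside the summed levels given above, and their part in other results was not tested.

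Mitosis and DNA replication differed. Of 34 mitosis genes 24 were called lower and 3 higher, with a median of -0.60 and, after subtraction of the coding length trend, -0.76. *Kif20b*, a kinesin of cytokinesis, had 62.7 and 65.2 CPM in total and 1.77 and 3.61 CPM in polysome mRNA (-4.55 ± 0.235). *Kif18a* (-2.88 ± 0.184) and *Top2a* (-1.99 ± 0.0708) followed, while *Cdk1* (0.47 ± 0.115) and *Cdca8* (0.66 ± 0.0908) were higher. Of 37 replication genes 17 (45.9%) were called higher and 9 (24.3%) lower, beside 35.6% and 35.8% of all genes tested. Their median was 0.26, and they ran from *Pola1* (-1.69 ± 0.0894) to *Pold2* (1.12 ± 0.09) and *Rfc4* (1.14 ± 0.0922). The difference between the lists was not tested.

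RNA cytosine methylation was a subject of the study. Of its enzymes and readers 6 of 15 (40.0%) were called higher and 7 (46.7%) lower, beside 35.6% and 35.8% of all genes tested. The methyltransferase *Nsun2* had 96.7 and 96.9 CPM in total and 210 and 200 CPM in polysome mRNA (1.08 ± 0.0721), and *Nsun4* (1.09 ± 0.101) and *Nsun5* (1.02 ± 0.153) were higher too. The oxygenases *Tet2* (-2.84 ± 0.14) and *Tet1* (-2.31 ± 0.113), with long coding sequences, were lower. Of the 28 mRNAs that the study listed by m5C and translation, 16 were called higher and 3 lower, with a median of 0.34. The study sorted these mRNAs by its own polysome against total comparison of the same libraries, MF included. The directions of those it sorted as positive or negative therefore follow in large part from that sorting and are no separate result. It listed the others, *Dgcr2* and *Hnrnph1* among them, as neutral, without a significant change by its own test. Calls made here among the neutral ones differ from that sorting. The 28 included *Smyd2* (1.40 ± 0.0764), *Hdgf* (395 and 392 CPM in total, 606 and 597 CPM in polysome mRNA, 0.61 ± 0.0658) and *Dgcr2* (0.28 ± 0.0674, a call lost under 10 of the 18 alternatives). The 3 called lower were *Glg1* (477 and 472 CPM against 243 and 227 CPM, -1.01 ± 0.0699), *Col4a6* (-0.84 ± 0.0792) and *Hnrnph1* (-0.55). Of 28 genes of PI3K, AKT and mTOR signalling 7 were called higher and 12 lower, from *Rictor* (-2.36 ± 0.145), the defining subunit of mTORC2, and the S6 kinase *Rps6kb1* (-2.0 ± 0.227) to the small GTPases *Rheb* (0.77 ± 0.0773) and *Rraga* (1.24 ± 0.0744).

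The same comparison was made at the other folic acid concentrations, each with its own total and polysome libraries. At HF 9843 of 13785 genes were called. Across the 13564 genes tested at both doses the log2 ratios had a Pearson r of 0.933 (points share the protocol, annotation and gene properties), and 97.4% of the genes called at MF had the same sign at HF. At LF 3420 genes were called and 90.1% of the genes called at MF had the same sign. The LF polysome replicates differed over 2-fold for 14.7% of the genes, against 0.732% for MF and 0.652% for HF, and replicate 2 was the less like the other doses (mean r of 0.961 against 0.984 for replicate 1). Without it 9522 genes were called at LF and 95.2% kept their sign, and without replicate 1 10060 genes were called and 80.4% kept their sign. Each of these 2 fits holds 1 polysome library, assumed to vary like the 2 total libraries, so its larger number of calls follows from leaving out the spread between the polysome replicates. The ATF4 targets had median log2 ratios of 3.51 at HF and 2.73 at LF, the very long proteins -2.21 and -2.37 and the nuclear noncoding RNAs -2.59 and -2.71, beside 3.30, -2.06 and -2.69 at MF.

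A test of the interaction between fraction and dose (edgeR, all 12 libraries) asked where the ratio itself differed from MF. It called 34 of 14421 genes (0.236%) for LF and 0 (0%) for HF at an adjusted p under 0.05, with 2277 and 599 genes at an unadjusted p under 0.05. These counts depended on the libraries: without polysome LF replicate 1 or 2 they were 6853 and 1001 for LF and 428 and 443 for HF, and without any other single library 2 to 9 for LF and 0 or 1 for HF. With the replicate block 5 and 0 were called. Of the 322 genes selected by rule, 8 were called for LF and 0 for HF. Among these the LF ratio was lower for the ribosomal protein *Rpl41*, the complex I subunits *Ndufa13* and *Ndufs8* and the metallothioneins *Mt1*, *Mt2* and *Mt3*. The rule takes many genes for a high or low ratio at MF, *Ndufa13* and *Ndufs8* among them. That choice in itself favours a ratio nearer to 0 at another dose. *Trib3* had a log2 ratio of 6.64 at LF and 8.39 at HF, and its interaction for LF did not pass (adjusted p = 0.106). The small ribosomal subunit list had a median of 0.24 at LF and 0.77 at HF, and the large subunit list 0.28 and 0.72.

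**Figure D5:**
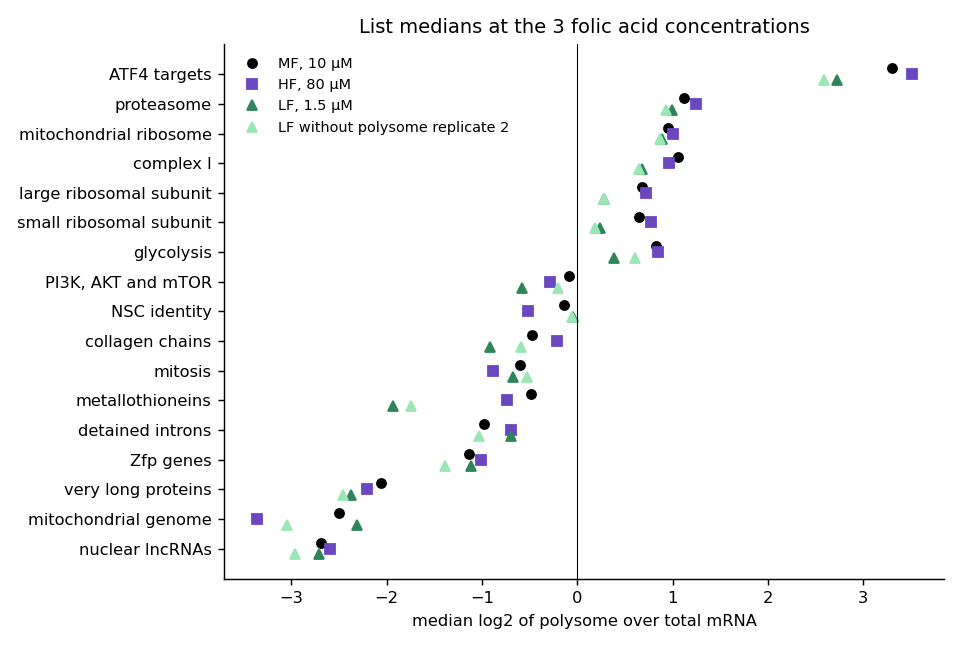
Median log2 ratio of polysome over total mRNA of 17 gene lists at MF (black circles), HF (purple squares) and LF (dark triangles), with LF also shown without polysome replicate 2 (light triangles). The ATF4 targets are the highest list at each dose (3.30, 3.51 and 2.73), and the lowest are the nuclear noncoding RNAs at MF (-2.69) and LF (-2.71) and the mitochondrial mRNAs at HF (-3.36).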

How the data were processed

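Polyadenylated RNA of total lysates and of pooled polysome fractions was sequenced as paired 150-base reads, and the authors trimmed the reads with Trim Galore and quantified genes with RSEM 1.3.0 and Bowtie2 2.2.9 on mm10. The deposited expected counts (estimated reads per gene) were rounded to whole numbers for testing, and the deposited TPM values served for marker levels and as an alternative unit. The gene annotation and strand setting are not given in the sources used here. Of 43432 gene identifiers 42548 were named from GENCODE M21, and the other 884 took 0.137% to 0.202% of the counts of the 4 libraries. Coding length, untranslated regions and GC content came from 1 coding transcript per gene.

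The 4 MF libraries (20506797 to 28170296 counts) were fitted with edgeR 4.0.16 (R 4.3.3; TMM factors, low-count filter by group, robust quasi-likelihood test), and p-values were adjusted by Benjamini-Hochberg over 13804 genes. Calls needed both an adjusted value under 0.05 and a difference of more than 1.2-fold. The interaction of fraction and dose was fitted in all 12 libraries. Intervals cover counting error only. Alternatives were other normalizations and filters, DESeq2 1.42.0, limma 3.58.1, other call rules and sample sets, the replicate block, left-out libraries and TPM. A Spearman correlation is given without a p, since genes are not independent.

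The libraries, gene lists and named genes were chosen with earlier results of these data known. Named genes were drawn by rule from the 12 highest and 12 lowest protein-coding and the 5 highest and 5 lowest noncoding called genes with at least 10 CPM in the larger fraction mean and no overlap of fractions, the 3 highest and lowest of each list, every member of lists of 13 or fewer, 11 fixed genes and the 4 shortest and longest proteins by GENCODE coding length (no protein table was used here). Replicate numbers were checked for pairing: deviations of same-numbered total and polysome MF libraries correlated with r = 0.058. A few genes that the rule selects are not reported here.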

Additional observations from a re-analysis of the deposited data

Results flagged for a closer look

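The ratio of polysome over total mRNA differed between LF and MF for 8 of the 322 genes named by rule, by the interaction of fraction and dose (edgeR's quasi-likelihood test over all genes, 12 libraries, 2 per group). The change of the log2 ratio, LF minus MF, was -1.24 for *Rpl41* (adjusted p = 0.0334), -1.32 for *Ndufa13* (0.0497), -1.03 for *Ndufs8* (0.0497), -1.81 for *Mt1* (0.0484), -1.29 for *Mt2* (0.0497) and -1.68 for *Mt3* (0.0374). These 6 adjusted p-values lay between 0.0334 and 0.0497. The direction was the same in all 15 alternatives for each of the 6 genes, but 5 passed the threshold in 4 of 15 and *Rpl41* in 6 of 15. The largest adjusted p ran from 0.288 to 0.357. The LF polysome replicates differed over 2-fold for 14.7% of genes, and the part of this spread in these differences was not tested. *Ndufa13* and *Ndufs8* were named for a high ratio at MF within their list, a choice that in itself favours a lower ratio at LF.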

How the results depend on the processing

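The 9858 calls at MF (4916 higher, 4942 lower) stayed within 1.5 times under each other normalization, filter, tool and set of libraries, and under TREAT. A fold change over 2 left 4531 (1758 and 2773). Without 1 library each, where the lone library is assumed to vary like the other fraction, 8292 to 10267 were called, 4195 to 5029 higher and 4088 to 5238 lower. With the replicate block 9889 genes were called. Deviations of same-numbered MF libraries correlated with r = 0.058, which does not settle whether they share a culture, and the numbers were not treated as pairs. Named genes called for LF numbered 8, with DESeq2 size factors 14, with no count filter 24, with the replicate block 0, and without 1 library each 0 to 157. The 157 and 54 came without polysome LF replicates 1 and 2, and 0 or 1 without any other. For HF, 4 were called with no count filter and 0 to 16 without 1 library each (15 and 16 without polysome LF replicates 1 and 2, 0 otherwise). The call count at LF of 3420 became 10060 and 9522 without polysome LF replicate 1 or 2, alternatives chosen after seeing the data. Subtracting the coding length trend reversed the medians of the polyamine (-0.25), collagen (0.40), cytoskeleton (-0.05) and p53 (-0.12) lists. TPM ratios reversed the small nucleolar RNA host (0.14), oligodendrocyte (0.00) and microglia (0.23) lists. Without 1 library each the oligodendrocyte median ran from -0.33 to 0.05 (0.05 without total MF replicate 2), and the ependyma median was -0.01 with a filter of 1 CPM. *Mt3* was -0.01 with TMM on nuclear coding genes, -0.09 with library totals and -0.05 by TPM. The cause was not tested. With 2 libraries per fraction, low genes and small ratios are the least certain.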

Other observations

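Among genes that are not on the ATF4 target list, *G0s2* and *Serpinf1* were also far higher in polysomes. *G0s2*, an inhibitor of lipolysis, had 0.974 and 1.08 CPM in total and 36.3 and 41.2 CPM in polysome mRNA (log2 5.23 ± 0.164, edgeR), with ratios of 5.17 at HF and 3.11 at LF. *Serpinf1*, which encodes the secreted factor PEDF, had 2.87 and 2.03 CPM in total and 77 and 110 CPM in polysome mRNA (5.25 ± 0.251). Its ratio was 6.45 at HF and 5.02 at LF.

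Replication-dependent histone mRNAs, which mostly lack a poly(A) tail, were little covered: 10 of 64 genes were tested and 3 called. The linker histone *Hist1h1c* had 16.5 and 19.5 CPM in total and 47 and 62.4 CPM in polysome mRNA (1.61 ± 0.152). *Hist2h2be* was lower (-0.90 ± 0.15). Of 28 actins, tubulins and small actin binders 17 were called higher and 2 lower.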
